A study of Mus musculus with 17 samples.

Results

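The sirtuins are a family of 7 genes, Sirt1 to Sirt7, and all 7 were found by their symbols among the 24491 genes listed for each of the 17 RNA sequencing libraries. Every library came from wild type CD1 mice. The oocyte libraries, each of about 10 mature (metaphase II) oocytes, came from 48-week-old females given rapamycin, an inhibitor of the mTOR kinase, at 2 mg/kg by injection for 40 weeks from week 8 (rapa-treated aged, n = 3 libraries), from untreated 48-week-old females (aged, n = 2) and from untreated 4-week-old females (young, n = 2). The hippocampus libraries came from adult female offspring, 40 to 44 weeks old, of rapa-treated aged mothers (n = 3), aged mothers (n = 3) and young mothers (n = 4). The protocol describes rapamycin injections of females of the mothers' generation and none of the offspring, although the treatment label of the first offspring group reads rapa. Hormones were given before oocyte collection at 10 IU to the 48-week-old females, treated or not, and at 5 IU to the young females, so age and hormone dose cannot be told apart. The design text places the oocyte work in 3 separate experiments without saying which library belongs to which, and nothing in the labels ties the libraries of a group to different animals. Each p-value therefore reflects library-to-library spread alone, part of which may be technical.

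Sirtuins remove acetyl and other acyl groups from lysines of proteins, or transfer ADP-ribose to them, and consume NAD in each reaction, which ties their activity to the supply of NAD in the cell. Sirt1, Sirt6 and Sirt7 act mainly in the nucleus, Sirt2 mainly in the cytoplasm, and Sirt3, Sirt4 and Sirt5 in the mitochondria. In the brain Sirt2 is known as an enzyme of oligodendrocytes and their myelin, and Sirt3 is the main deacetylase of mitochondrial proteins.

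Oocyte libraries held 3912163 to 8334873 counts, of which 406 to 1127 fell on the sirtuins, and hippocampus libraries held 16434398 to 20220617 counts with 3566 to 5127 on the sirtuins. A count of 3 corresponded to 0.349 to 0.809 counts per 1000000 of the scaled library (CPM) in oocytes and to 0.151 to 0.187 CPM in hippocampus. The summed level of 10 oocyte marker genes was 4907 CPM in replicate 1 of the rapa-treated aged oocytes, between 22672.5 and 29701 CPM in the other 6 oocyte libraries, and at most 1.07 CPM in hippocampus. That replicate also held the highest sum of 12 cumulus and granulosa cell markers among oocyte libraries, 184 CPM against 39.6 to 96.1 CPM. Some oocyte results are also given without it, while CPM ranges, family shares and counting ratios include it. Neuron markers summed to 5314 to 7740 CPM in hippocampus, where all 7 were detected in each library. A cell type present in smaller number and less RNA per cell cannot be told apart in these bulk samples.

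The starts of Sirt2, Sirt3 and Sirt4 are shown because these 3 genes differed most between the tissues, and because over the hippocampus libraries Sirt3 moved with Sirt2 and opposite to Sirt4. Each sequence runs from 250 bases before to 50 bases after the annotated start, 5′ to 3′ on the strand of the gene, from RefSeq on GRCm38.p6. Capitals mark CCAAT boxes (CCAAT) and the ETS core (CCGGAAG), searched on both strands, and the Sirt4 window holds neither. The windows are chr7:28766502-28766801 on the plus strand for Sirt2, chr7:140882260-140882559 on the minus strand for Sirt3 and chr5:115484248-115484547 on the minus strand for Sirt4.
Sirt2 promoter: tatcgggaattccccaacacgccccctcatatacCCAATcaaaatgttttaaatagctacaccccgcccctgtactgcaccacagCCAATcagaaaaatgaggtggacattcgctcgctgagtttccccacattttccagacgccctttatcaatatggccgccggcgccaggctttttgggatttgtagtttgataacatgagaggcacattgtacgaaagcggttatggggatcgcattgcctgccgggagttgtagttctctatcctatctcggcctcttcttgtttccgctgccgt
Sirt3 promoter: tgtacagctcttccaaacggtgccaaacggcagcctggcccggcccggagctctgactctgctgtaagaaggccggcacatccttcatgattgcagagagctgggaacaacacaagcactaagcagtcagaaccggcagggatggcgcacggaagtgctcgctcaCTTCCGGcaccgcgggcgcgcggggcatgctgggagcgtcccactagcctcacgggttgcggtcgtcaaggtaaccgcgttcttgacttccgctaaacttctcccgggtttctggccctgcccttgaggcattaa
Sirt4 promoter: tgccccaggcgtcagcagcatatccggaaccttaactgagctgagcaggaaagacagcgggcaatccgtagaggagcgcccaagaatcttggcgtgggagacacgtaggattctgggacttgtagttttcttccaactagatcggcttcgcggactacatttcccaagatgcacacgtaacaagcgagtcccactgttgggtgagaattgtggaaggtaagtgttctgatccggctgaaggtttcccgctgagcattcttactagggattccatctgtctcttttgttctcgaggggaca
The Sirt2 window held 2 CCAAT boxes, a motif present in 37.4% of the 32851 promoter windows of the same length. The Sirt3 window held 1 ETS core, present in 8.86% of all windows, and a second annotated start of Sirt3 held 1 CCAAT box and no ETS core. Among the other members, the ETS core occurred once in the first annotated window of Sirt6 and at 2 places in that of Sirt7, and the E-box CACGTG, present in 7.15% of windows, occurred at 2 places in Sirt1 and in no other sirtuin window. Sirt5 held 1 CCAAT box. The GC box GGGGCGGGG, present in 11.4% of windows and not marked by capitals, occurred once each in Sirt1, Sirt2, Sirt5 and the second start of Sirt3. The TATA box TATAAA, present in 13.6% of windows, occurred in no sirtuin window. CpG dinucleotides numbered 16 in Sirt2, 23 in Sirt3 and 15 in Sirt4, against a median of 7 over all windows, and 47 in Sirt1, more than in 98.6% of them. These matches describe letters in a window and say nothing of binding.

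The first comparison set the 7 oocyte libraries against the 10 hippocampus libraries, on a CPM scale shared by all 17. Sirt4 was higher in oocytes, and Sirt2, Sirt3 and Sirt5 were lower. Tissue and library preparation differ together here, since oocyte cDNA was amplified by template switching and hippocampus RNA was not, so their parts cannot be told apart. The edgeR quasi-likelihood test called 6 of 7 sirtuins, 3 higher and 3 lower in oocytes, which is near the 88.8% of all 16672 genes tested that were called (32.9% higher and 55.8% lower). At an unadjusted p under 0.05 the same test had 6 sirtuins and 89.2% of all genes, and DESeq2 also called 6 sirtuins. The ranges of the tissues did not overlap for 4 sirtuins, 1 higher and 3 lower in oocytes, against 67% of all genes (21.7% higher and 45.3% lower). Without replicate 1 of the rapa-treated aged oocytes the count of sirtuins called was again 6.

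Sirt4 encodes a mitochondrial ADP-ribosyltransferase and lipoamidase that restrains glutamate and fatty acid use. Its level in oocytes ran from 66.9 to 115 CPM with a median of 106, against 5.47 to 14.1 CPM with a median of 8.71 in hippocampus. The ranges did not overlap, and the means, 98.0 ± 19.1 in oocytes and 9.70 ± 3.23 CPM in hippocampus (SD, n = 7 and n = 10 libraries), gave a fold change of 3.31 ± 0.20 on the log2 scale (SE; edgeR adjusted p = 4.28e-11), 9.94-fold higher in oocytes. All-gene values were shifted the other way, with a median log2 fold change of -1.43, and 84.4% of genes had a lower value than Sirt4.

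Sirt2, the mainly cytoplasmic tubulin deacetylase, was close to the detection floor in oocytes. It had 33 counts over all 7 oocyte libraries, between 0 and 3.37 CPM with a median of 1.12, against 46.2 to 92.6 CPM with a median of 60.5 in hippocampus. The log2 fold change of -6.66 ± 0.42 (edgeR adjusted p = 9.65e-11) corresponds to a 101-fold lower level in oocytes. That estimate weighs the 3 groups of a tissue alike, although the aged oocytes held 1 Sirt2 count. Leaving out single libraries gave log2 fold changes from -8.98 to -6.34, so its size is imprecise. Sirt3 ran from 0.854 to 11.2 CPM in oocytes, median 2.90, against 43.2 to 95.2 CPM in hippocampus, median 63.9. It was 23.8-fold lower in oocytes (log2 fold change -4.57 ± 0.34, edgeR adjusted p = 8.57e-10). Neither gene's ranges overlapped between the tissues. Of all genes, 16.3% had a lower log2 fold change than Sirt2 and 27.9% a lower one than Sirt3.

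Exons of Sirt3 share 12.7% of their bases with its neighbours Psmd13 (a proteasome subunit, 5.73%) and Ric8a (a G protein chaperone, 7%), which lie on the opposite strand. The sources used here do not say whether reads were counted by strand, and reads from the shared bases cannot be assigned with certainty. Both neighbours were also lower in oocytes, Psmd13 with a fold change of -7.30 ± 0.34 on the log2 scale (edgeR adjusted p = 1.68e-12) and Ric8a with -6.34 ± 0.27 (adjusted p = 6.62e-13). The gene body of Sirt3 spans chr7:140863666-140882309, that of Sirt2 chr7:28766735-28788661 and that of Sirt4 chr5:115478010-115484725 (GENCODE M21, GRCm38), and Sirt4 shares no exon base with another gene.

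Sirt5, which removes malonyl, succinyl and glutaryl groups in mitochondria, was 2.68-fold lower in oocytes (log2 fold change -1.42 ± 0.20, edgeR adjusted p = 3.79e-06). Its levels were 1.498 to 4.35 CPM in oocytes and 7.27 to 9.81 CPM in hippocampus, without overlap. A change of that size stood in the middle of all genes, of which 50.1% had a lower log2 fold change than Sirt5.

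The nuclear members differed least, and the direction of Sirt1 and Sirt6 depended on the scaling. Sirt1, a deacetylase of histones and transcription factors, ran from 11.01 to 29.2 CPM in oocytes and from 7.68 to 18.4 CPM in hippocampus, with a fold change of 0.58 ± 0.20 on the log2 scale (edgeR adjusted p = 0.0131). Without replicate 2 of the aged oocytes that adjusted p was 0.0788 in edgeR. Sirt6, which acts on histone H3 at telomeres and in DNA repair, had a fold change of 0.69 ± 0.23 on the log2 scale (edgeR adjusted p = 0.00991) and ran from 6.74 to 36.9 CPM in oocytes against 12.9 to 16.3 CPM in hippocampus. The nucleolar Sirt7 did not pass the test (-0.11 ± 0.26, edgeR adjusted p = 0.691, 95% interval -0.66 to 0.44). With libraries scaled by their total counts alone, the log2 fold changes were -0.14 for Sirt1, -0.0024 for Sirt6 and -0.80 for Sirt7, of which only that of Sirt7 passed (edgeR adjusted p = 0.0137), and the median of all genes was -2.13 in place of -1.43. Sirt4 was called higher in oocytes and Sirt2, Sirt3 and Sirt5 lower under TMM, RLE, DESeq2 and total-count scaling alike. With total-count scaling 5 of 7 sirtuins were called, against 89.6% of all genes, and 1 of them was higher in oocytes, against 27.5%.

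**Figure D1:**
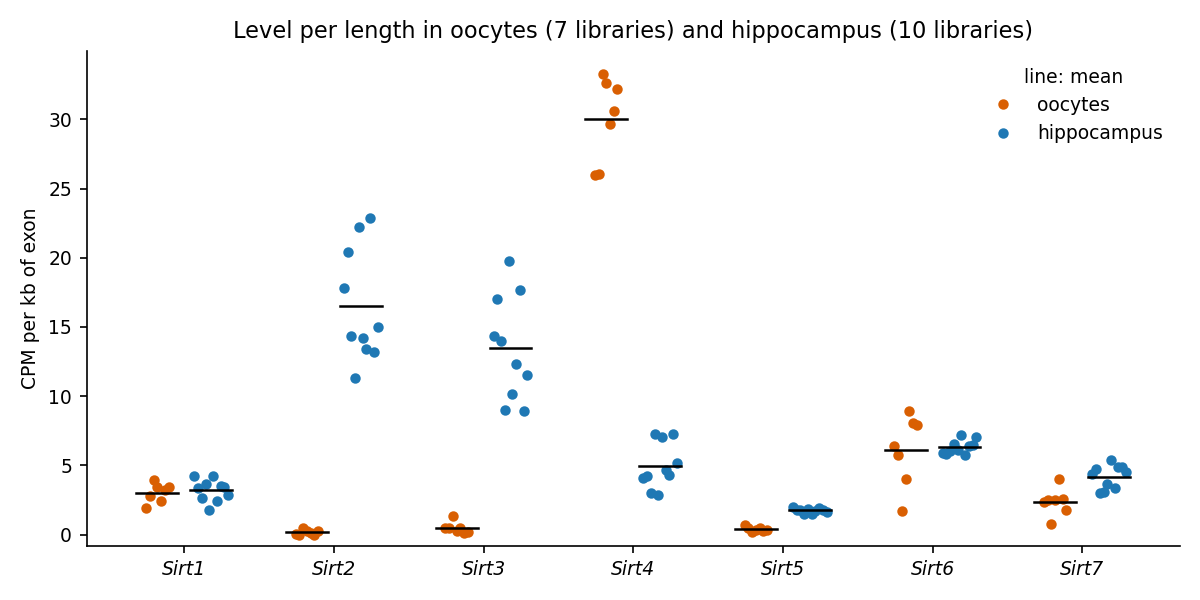
Level of each sirtuin per kilobase of exon in the 7 oocyte libraries (left of each pair) and the 10 hippocampus libraries (right), scaled within each tissue, with 1 point per library and a line at the mean. Within oocytes Sirt4 averaged 30.1 CPM per kb, Sirt3 0.47 and Sirt2 0.16. Within hippocampus Sirt2 averaged 16.5, Sirt3 13.5 and Sirt4 4.98 CPM per kb. As the scale is set within each tissue, the values compare members within a tissue and not a gene between tissues.

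To compare the members with one another, levels were divided by the length of all annotated exons and scaled within each tissue. In oocytes Sirt4 came first with 30.1 ± 3.0 CPM per kb (SD, n = 7) and made up 70.7% ± 5.1 of the summed level of the family, between 64.3% and 79.8% in single libraries. It was above the next member, Sirt6, in 7 of 7 libraries without overlap of their ranges, and above 85.7% of the 9801 oocyte genes with a known length. Sirt6 followed with 6.11 ± 2.54, Sirt1 with 3.02 ± 0.69, Sirt7 with 2.36 ± 0.99, Sirt3 with 0.47 ± 0.42, Sirt5 with 0.392 ± 0.155 and Sirt2 with 0.164 ± 0.171 CPM per kb. From Sirt6 downward each neighbour in this order overlapped the next, and Sirt3 lay above Sirt5 in only 2 of 7 libraries.

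The hippocampus order was different. Sirt2 averaged 16.5 ± 4.1 and Sirt3 13.5 ± 3.8 CPM per kb (SD, n = 10), and they made up 32.3% ± 3.8 and 26.4% ± 4.9 of the family. Their ranges overlapped, although Sirt2 was the higher of the pair in 10 of 10 libraries. Sirt3 lay above the third member, Sirt6 (6.34 ± 0.50), in 10 of 10 libraries without overlap. Sirt4 (4.98 ± 1.67), Sirt7 (4.19 ± 0.84), Sirt1 (3.21 ± 0.78) and Sirt5 (1.74 ± 0.16 CPM per kb) followed, each overlapping its neighbour. Dividing by the longest annotated transcript instead put Sirt5 (4.38 ± 0.41 CPM per kb) above Sirt1 (3.87 ± 0.94) in hippocampus and above Sirt3 in oocytes (0.985 ± 0.388 against 0.867 ± 0.780 CPM per kb). It also put Sirt7 (3.71 ± 1.55 CPM per kb) above Sirt1 (3.63 ± 0.83) in oocytes.

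The next comparisons asked whether the age of the female, or rapamycin during her adult life, changed sirtuin transcripts in the oocyte. No sirtuin passed the test between any oocyte groups. Of the 7, 6 passed the low-count filter (Sirt2 did not), and edgeR called 0 of 6 between rapa-treated aged and aged oocytes, between aged and young oocytes, and between rapa-treated aged and young oocytes. The shares of all 10083 genes called in those comparisons were 0%, 0.268% and 0.426%. DESeq2 also called 0 sirtuins. At an unadjusted edgeR p under 0.05 there were 0, 0 and 1, the last being Sirt3, against 5.98%, 11.5% and 8.91% of all genes.

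Sirt4, the leading member, had 79.8, 78.2 and 71.1 CPM in rapa-treated aged oocytes, 62.3 and 62.5 CPM in aged oocytes, and 73.4 and 77.1 CPM in young oocytes. The aged libraries lay below all libraries of both other groups. The log2 fold change was 0.29 ± 0.32 between rapa-treated aged and aged oocytes (edgeR adjusted p = 0.815, 95% interval -0.45 to 1.03) and -0.27 ± 0.35 between aged and young oocytes (edgeR adjusted p = 0.795, interval -1.07 to 0.53). Between rapa-treated aged and young oocytes it was 0.020 ± 0.32. The pattern of separate ranges was common, since 25.6% of all genes did not overlap between rapa-treated aged and aged oocytes and 61.3% did not between aged and young.

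Sirt3 was counted few times per oocyte library, with 30, 10 and 18 counts in rapa-treated aged oocytes (8.06, 1.49 and 2.71 CPM), 10 and 13 counts in aged oocytes (2.70 and 2.92 CPM), and 3 and 8 counts in young oocytes (0.654 and 0.931 CPM). Every library of the 48-week-old females lay above both young libraries, and 33.4% of all genes did not overlap between rapa-treated aged and young oocytes. The log2 fold change between rapa-treated aged and young oocytes was 2.28 ± 0.91 (95% interval 0.16 to 4.39, edgeR adjusted p = 0.533), and between aged and young it was 1.77 ± 0.97 (edgeR adjusted p = 0.513). The highest value belongs to the replicate with low oocyte markers, and with high cumulus and granulosa markers. Without it the first of these values was 1.36 ± 0.72 (edgeR adjusted p = 0.405), the second 1.76 ± 0.73 (interval 0.12 to 3.40, edgeR adjusted p = 0.14), and the log2 fold change between rapa-treated aged and aged oocytes was -0.40, against 0.50 with it. Summed counts gave a ratio of 3.38 for aged over young oocytes, with a 95% interval of 1.58 to 7.68 that covers counting error only.

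The remaining mitochondrial member, Sirt5, had 1.08, 2.08 and 2.86 CPM in rapa-treated aged oocytes, 4.04 and 2.70 CPM in aged oocytes, and 1.74 and 2.21 CPM in young oocytes. Both aged libraries lay above both young ones, with a fold change of 0.75 ± 0.75 on the log2 scale (edgeR adjusted p = 0.729). Sirt2 had 9, 8 and 5 counts in rapa-treated aged oocytes, 1 and 0 counts in aged oocytes, and 0 and 10 counts in young oocytes. The 22 counts of the treated group against 1 of the aged group gave a ratio of 10.5 with a counting interval of 1.70 to 434, and against the 10 counts of the young group a ratio of 1.70 (0.772 to 4.02). All rapa-treated aged libraries (0.753 to 2.42 CPM) lay above both aged libraries (0 and 0.270 CPM), while the young libraries, at 0 and 1.16 CPM, overlapped both other groups.

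Among the nuclear members, Sirt6 had 4.84, 11.2 and 24.9 CPM in rapa-treated aged oocytes, 17.8 and 16.0 CPM in aged oocytes, and 22.4 and 22.1 CPM in young oocytes. Sirt7 had 3.76, 13.0 and 20.8 CPM, 12.1 and 12.8 CPM, and 13.3 and 9.31 CPM in the same order of groups. Both genes ranged more widely among the rapa-treated aged libraries than over all other oocyte libraries, with replicate 1 lowest. Between rapa-treated aged and aged oocytes the log2 fold change was -0.30 for Sirt6 and 0.015 for Sirt7. Without replicate 1 these values were 0.12 and 0.45. Sirt6 was lower in both aged libraries than in both young ones, with a fold change of -0.40 ± 0.69 on the log2 scale (edgeR adjusted p = 0.852). Sirt1 had 21.0, 18.3 and 12.8 CPM in rapa-treated aged oocytes, 10.2 and 14.8 CPM in aged oocytes, and 17.2 and 18.3 CPM in young oocytes. Its log2 fold change was -0.50 ± 0.46 between aged and young oocytes (edgeR adjusted p = 0.706), without overlap, and 0.46 ± 0.43 between rapa-treated aged and aged oocytes (edgeR adjusted p = 0.784), with overlap. In all, 5 of the 6 sirtuins tested did not overlap between aged and young oocytes, 3 of them lower (Sirt1, Sirt4, Sirt6) and 2 higher (Sirt3, Sirt5) in aged oocytes, against 31.7% of all genes that were lower without overlap and 29.6% that were higher.

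**Figure D2:**
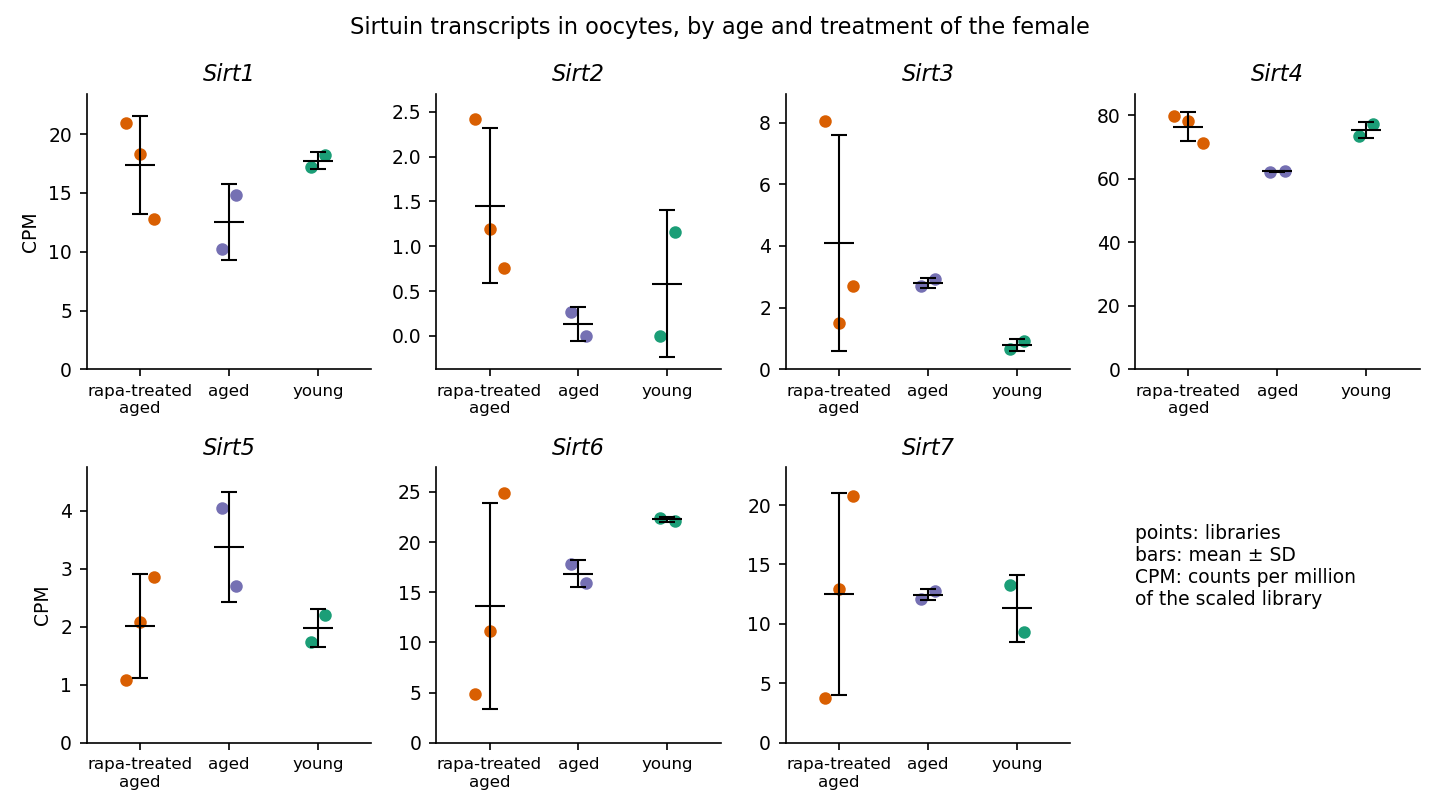
CPM of the 7 sirtuins in oocytes of rapa-treated aged, aged and young females, with points for libraries and bars for the mean ± SD. Sirt4 lies at 62.3 and 62.5 CPM in both aged libraries and between 71.1 and 79.8 CPM in the other 5, and Sirt3, Sirt6 and Sirt7 spread most within the rapa-treated aged group.

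The biological coefficient of variation was 49.5% over the 7 oocyte libraries and 28.1% without replicate 1 of the rapa-treated aged group. Without that library edgeR still called 0 of 6 sirtuins in each comparison, while the share of all genes called between aged and young oocytes was 11.4%, that between rapa-treated aged and young oocytes 2.97% and that between rapa-treated aged and aged oocytes 0.0587%. The smallest adjusted p of a sirtuin was then 0.14, for Sirt3 between aged and young oocytes in the edgeR fit.

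The hippocampus comparisons asked whether the age or the rapamycin treatment of the mother was followed by a difference in the adult brain of her offspring. All 7 sirtuins passed the filter and none passed the test. EdgeR and DESeq2 each called 0 of 7 between offspring of rapa-treated aged and aged mothers, of aged and young mothers, and of rapa-treated aged and young mothers, and 0 had an unadjusted edgeR p under 0.05. Shares of all 14877 genes called by edgeR in those comparisons were 0%, 0.0471% and 0.0538%, and the shares with an unadjusted p under 0.05 were 4.52%, 3.51% and 3.63%.

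Sirt2 had 57.1, 112 and 71.7 CPM in offspring of rapa-treated aged mothers, 89.8, 103 and 72.2 CPM in offspring of aged mothers, and 67.6, 115, 66.6 and 75.6 CPM in offspring of young mothers. Sirt3 had 53.9, 118 and 60.9 CPM, 85.6, 102 and 83.6 CPM, and 73.7, 106, 53.4 and 68.7 CPM in the same order. For both genes the groups overlapped, and single libraries of 1 group differed by more than any means of groups did. Between offspring of rapa-treated aged and aged mothers the log2 fold changes were -0.14 ± 0.28 for Sirt2 (95% interval -0.75 to 0.47) and -0.22 ± 0.30 for Sirt3 (interval -0.89 to 0.45). Between offspring of aged and young mothers they were 0.12 ± 0.26 for Sirt2 and 0.26 ± 0.28 for Sirt3.

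Sirt4 had 17.4, 6.78 and 16.8 CPM in offspring of rapa-treated aged mothers, 9.79, 10.1 and 7.18 CPM in offspring of aged mothers, and 11.3, 10.3, 17.4 and 12.3 CPM in offspring of young mothers. All libraries of the aged-mother group lay below all those of the young-mother group, while the treated group overlapped both. Between those 2 groups 5.44% of all genes did not overlap, and 2.52% of all genes were lower in that way, as Sirt4 was. The log2 fold change was -0.51 ± 0.31 between offspring of aged and young mothers (edgeR adjusted p = 0.990, 95% interval -1.21 to 0.18). It was 0.60 ± 0.33 between offspring of rapa-treated aged and aged mothers (edgeR adjusted p = 0.796, interval -0.13 to 1.34). These 2 comparisons share the libraries of the aged-mother group.

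Sirt5 and Sirt6 varied least. Sirt6 lay between 16.0 and 20.1 CPM over all 10 libraries, with a coefficient of variation of 7.90%, and Sirt5 between 8.98 and 12.0 CPM, with 9.42%. Sirt6 was the only sirtuin without overlap between offspring of rapa-treated aged mothers (16.99 to 20.1 CPM) and of aged mothers (16.3 to 16.92 CPM). Of all genes 9.89% did not overlap there and 5.01% were higher in that way. Sirt6 had a fold change of 0.15 ± 0.13 on the log2 scale (edgeR adjusted p = 0.796, 95% interval -0.14 to 0.44). Sirt7 ranged from 15.5 to 27.6 CPM and Sirt1 from 9.52 to 22.6 CPM, with overlap between the groups in each comparison. No sirtuin was without overlap between offspring of rapa-treated aged and young mothers, against 5.03% of all genes.

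**Figure D3:**
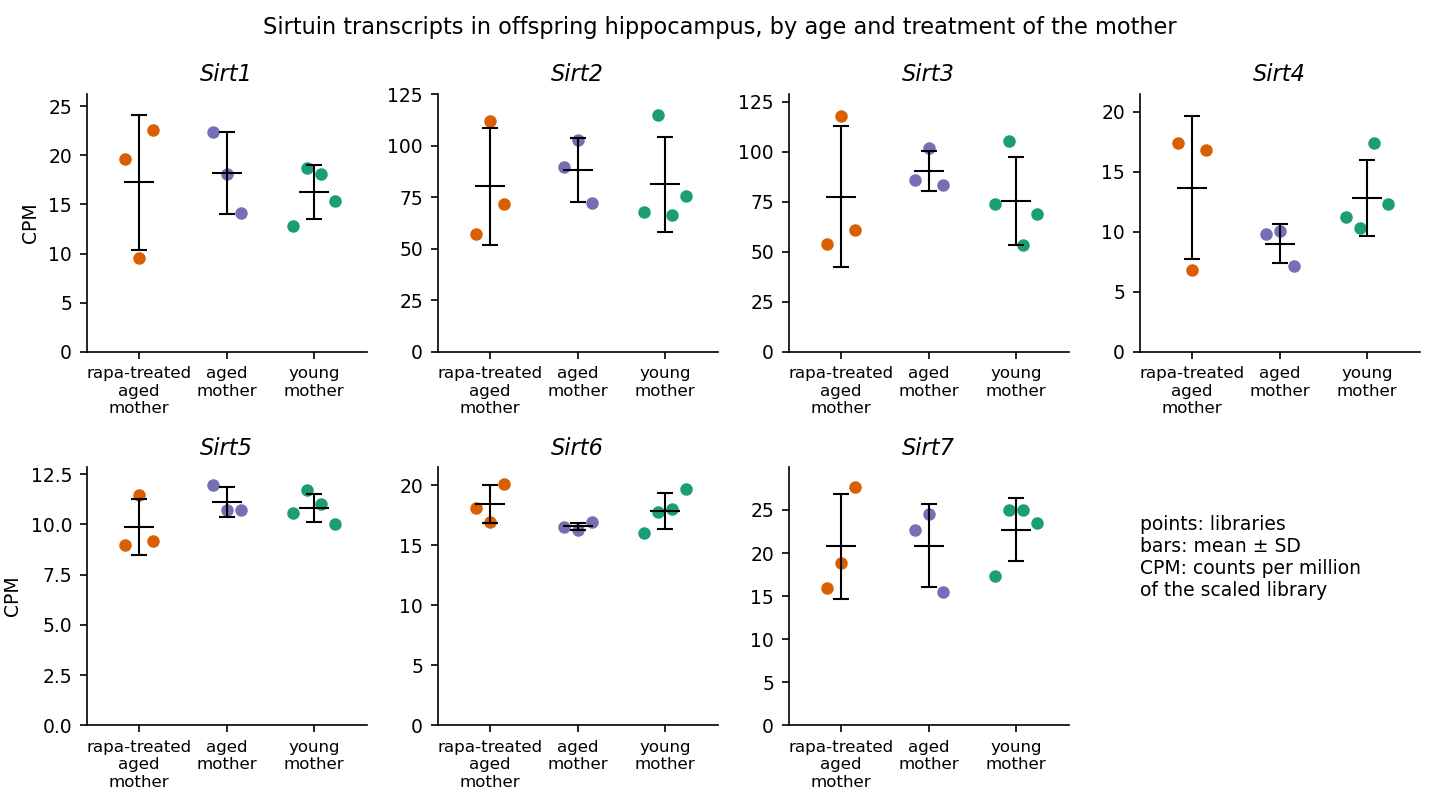
CPM of the 7 sirtuins in hippocampus of offspring of rapa-treated aged, aged and young mothers, with points for libraries and bars for the mean ± SD. Groups overlap for Sirt2, which ranges from 57.1 to 115 CPM over all libraries, and all 3 libraries of the aged-mother group (7.18 to 10.1 CPM) lie below the 4 of the young-mother group (10.3 to 17.4 CPM) for Sirt4.

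**Figure D4:**
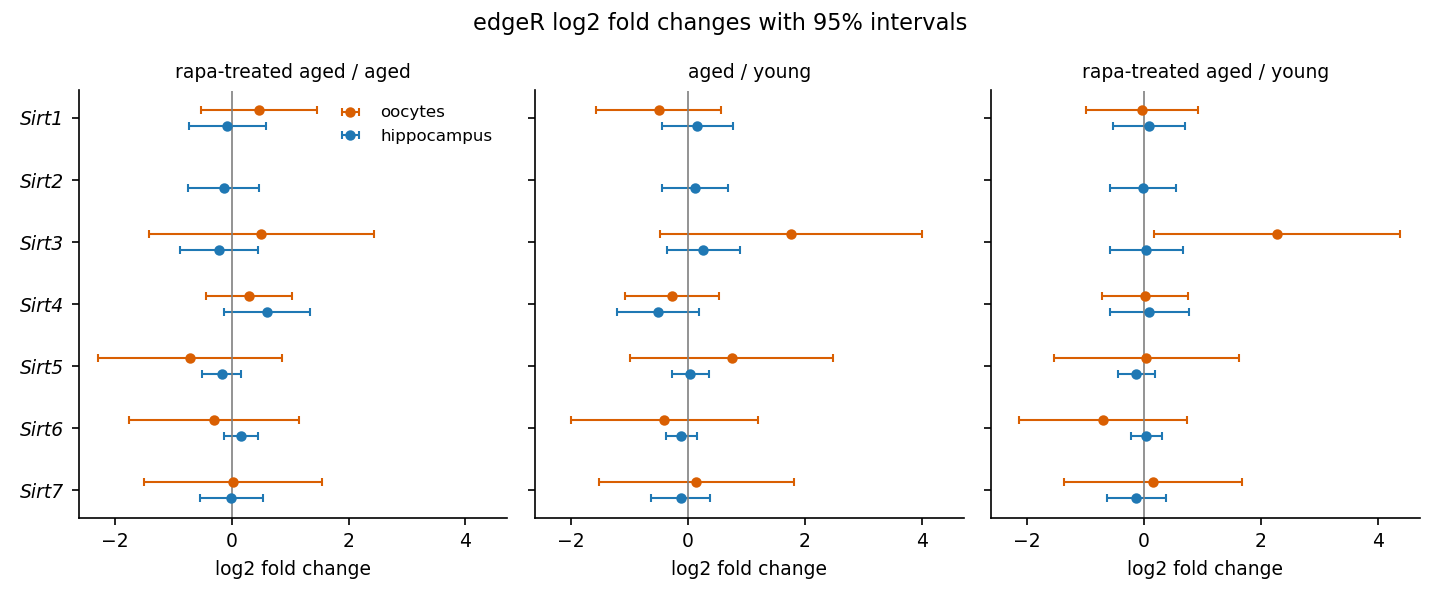
Log2 fold changes of the sirtuins (edgeR) with 95% intervals in oocytes (upper of each pair) and hippocampus (lower), for rapa-treated aged over aged, aged over young and rapa-treated aged over young. All intervals hold 0 except that of Sirt3 in oocytes between rapa-treated aged and young (0.16 to 4.39), and Sirt2 has no value in oocytes because it did not pass the low-count filter.

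Correlations were computed over the 10 hippocampus libraries for log2 CPM of the 7 sirtuins, a list of 76 cytosolic ribosomal protein genes and a list of 7 oligodendrocyte markers, 36 relations in all, with two-sided permutation tests and Benjamini-Hochberg adjustment over the 36. Sirt2 and Sirt3 rose and fell together (Pearson r = 0.919, permutation p = 0.000230, adjusted 0.00207; Spearman rho = 0.915, permutation p = 0.000530, adjusted 0.00636). Sirt3 and Sirt4 moved in opposite directions (r = -0.869, permutation p = 0.00178, adjusted 0.0107; rho = -0.867, permutation p = 0.00214, adjusted 0.0193). Sirt2 with Sirt4 did not pass (r = -0.648, permutation p = 0.0453, adjusted 0.128; rho = -0.733, permutation p = 0.0194, adjusted 0.0700). Taking out the group means left r at 0.923 for Sirt2 with Sirt3 and at -0.851 for Sirt3 with Sirt4. Leaving out the 2 libraries farthest from the median gave 0.908 for Sirt2 with Sirt3 and -0.757 for Sirt3 with Sirt4.

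The ribosomal protein list moved with all 3 genes and with Sirt5. Pearson r with that list was 0.945 for Sirt2 (permutation p = 7.00e-05, adjusted 0.000960; rho = 0.964, permutation p = 5.00e-05), 0.948 for Sirt3 (permutation p = 4.00e-05, adjusted 0.000960; rho = 0.952, permutation p = 5.00e-05), -0.804 for Sirt4 (permutation p = 0.00641, adjusted 0.0256; rho = -0.830, permutation p = 0.00499) and 0.809 for Sirt5 (permutation p = 0.00476, adjusted 0.0214; rho = 0.770, permutation p = 0.0126). Adjusted over the 36 relations, rho passed 0.05 for the first 3 of these genes and gave 0.0504 for Sirt5. Leaving out the 2 farthest libraries gave 0.910, 0.940, -0.818 and 0.644 in that order of genes. Over the libraries the list ranged from -0.92 to 0.68 log2 units around its mean, from -0.92 to 0.64 in offspring of rapa-treated aged mothers, from 0.039 to 0.49 in offspring of aged mothers and from -0.54 to 0.68 in offspring of young mothers. The aged-mother libraries lay close together, inside the range of both other groups but in its upper part. In offspring of rapa-treated aged mothers 0.64 lay above them, and -0.92 and -0.43 lay below. In offspring of young mothers 0.68 lay above them, and -0.54, -0.23 and -0.096 lay below.

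Oligodendrocyte markers moved with Sirt2 as well (r = 0.954, permutation p = 8.00e-05, adjusted 0.000960; rho = 0.842, permutation p = 0.00367, adjusted 0.0264), and r was 0.934 without the 2 farthest libraries and 0.967 with group means taken out. Sirt3 moved with them too (r = 0.83, permutation p = 0.00470, adjusted 0.0214; rho = 0.782, permutation p = 0.0105, adjusted 0.0474), with r = 0.715 without the 2 farthest libraries, and Sirt4 did not pass (r = -0.542, permutation p = 0.112, adjusted 0.223; rho = -0.673, permutation p = 0.0397, adjusted 0.119). All 7 markers were detected in each hippocampus library, and their sum ran from 2690 to 10055 CPM, with 4 libraries at 7783 CPM or above and 6 at 4852 CPM or below. Within those 6, Sirt2 and the markers gave r = 0.771 (exact permutation p = 0.0764; rho = 0.486), Sirt3 gave 0.162 (exact permutation p = 0.749) and Sirt4 -0.081 (exact permutation p = 0.83). The ribosomal list within the same 6 gave r = 0.877 for Sirt2 (exact permutation p = 0.0236), 0.893 for Sirt3 (exact permutation p = 0.0194) and -0.835 for Sirt4 (exact permutation p = 0.0319). These 6 were picked after the data were seen, for their low marker sums, which narrows the spread of the markers. Values of the markers and of the ribosomal list within the 6 therefore cannot be weighed against each other, and the p-values there are unadjusted. Both lists also moved with each other (r = 0.872, permutation p = 0.00167, adjusted 0.0107; rho = 0.782, permutation p = 0.0103), and their separate parts in the sirtuin levels were not tested. Psmd13, the neighbour that shares exon bases with Sirt3, ranged from 57.9 to 100.1 CPM over the same libraries, and its part in the Sirt3 counts was not tested.

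**Figure D5:**
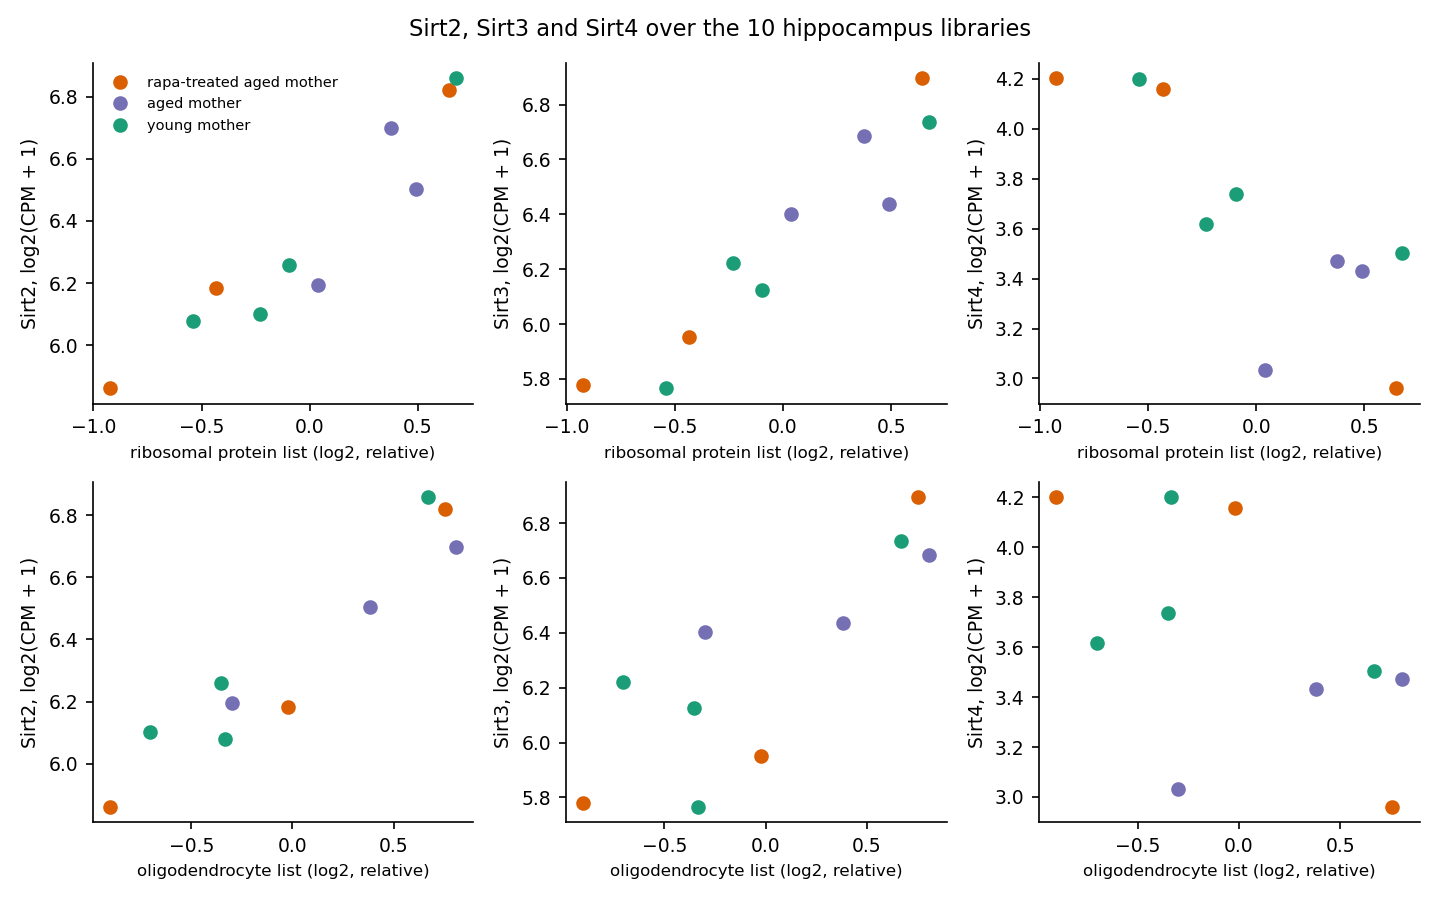
Log2(CPM + 1) of Sirt2, Sirt3 and Sirt4 in the 10 hippocampus libraries against the level of the ribosomal protein list (top) and of the oligodendrocyte list (bottom), both in log2 units relative to their mean, with colours for the groups of mothers. Sirt2 and Sirt3 rise with the ribosomal list (r = 0.945 and 0.948) and Sirt4 falls (r = -0.804), and the aged-mother libraries lie closer together on the ribosomal axis (0.039 to 0.49) than those of the other groups.

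The genes most like each sirtuin over the hippocampus libraries, by Pearson r of log2 CPM over 10 libraries, were Gbas for Sirt3 (r = 0.992), Leng8 for Sirt4 (0.988), Fth1, the ferritin heavy chain, for Sirt2 (0.984), Ppan for Sirt5 (0.946), Anxa9 for Sirt6 (0.941), Fcho2 for Sirt1 (0.932) and Haus5 for Sirt7 (0.910). Many genes shared the pattern of the first 3 sirtuins named, with r over 0.9 for 1084 of 14030 genes with Sirt3, 768 with Sirt2 and 269 with Sirt4, against 2 with Sirt6 and 4 with Sirt7. Over the 7 oocyte libraries the most similar genes were Add3 for Sirt5 (0.995), Sep15 for Sirt6 (0.992), Chchd3 for Sirt4 (0.990), Ppm1a for Sirt1 (0.988), Rev1 for Sirt7 (0.986) and Vrk3 for Sirt3 (0.982). None of these 6 remained first without replicate 1 of the rapa-treated aged oocytes, when Parp11 was most like Sirt4 (r = 0.998) and Ncs1 most like Sirt3 (0.996). With so few libraries and so many genes, high values arise for many genes, and they are given as a description.

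Genes that supply NAD, serve as substrates or regulate sirtuins were read from 4 lists. In the 6 comparisons between groups edgeR called 0 members of any list, of 12 tested genes of NAD synthesis and use, 15 sirtuin substrates, 8 sirtuin regulators and 7 zinc-dependent deacetylases in oocytes, and of 16, 21, 9 and 11 in hippocampus. Unadjusted edgeR p-values under 0.05 numbered at most 2 in any list and comparison, and DESeq2 called 1 gene, the Sirt1 activator Rps19bp1, higher in rapa-treated aged than in young oocytes (log2 fold change 2.05, DESeq2 adjusted p = 0.0303), where DESeq2 called 2.41% of all genes. Rps19bp1 had 102.2, 38.9 and 41.0 CPM in rapa-treated aged oocytes, 15.6 and 23.4 CPM in aged oocytes, and 14.6 and 15.4 CPM in young oocytes, and the treated libraries lay above all others. Of all genes 25.6% did not overlap between rapa-treated aged and aged oocytes, and 33.4% between rapa-treated aged and young. Replicate 1 was the highest of the treated libraries. Without it the log2 fold change of Rps19bp1 over young oocytes was 1.41 in DESeq2 (adjusted p = 0.00530) and 1.43 ± 0.33 in edgeR (adjusted p = 0.0527). In those fits DESeq2 called 520 of 10220 genes and edgeR 2.97% of all genes. Nampt, the rate-limiting enzyme of NAD salvage, had 8.60, 13.99 and 10.1 CPM in rapa-treated aged oocytes, 7.82 and 8.54 CPM in aged oocytes, and 11.3 and 10.8 CPM in young oocytes. Its log2 fold change was 0.42 ± 0.44 between rapa-treated aged and aged oocytes (edgeR adjusted p = 0.808) and -0.44 ± 0.47 between aged and young oocytes (edgeR adjusted p = 0.752). In hippocampus Nampt lay between 59.3 and 89.7 CPM, and its log2 fold change was -0.10 ± 0.15 between offspring of rapa-treated aged and aged mothers (edgeR adjusted p = 0.850).

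Without replicate 1 of the rapa-treated aged oocytes, 4 of 15 sirtuin substrates were called between aged and young oocytes, against 11.4% of all genes. The stress-response transcription factors Foxo3 (log2 fold change 1.67 ± 0.45, edgeR adjusted p = 0.0429), Rela (1.29 ± 0.32, adjusted p = 0.0332) and Hif1a (0.98 ± 0.25, adjusted p = 0.0379) were higher in aged oocytes in that edgeR fit. Cps1, a urea cycle enzyme and target of Sirt5, was lower by the same test (-2.83 ± 0.57, adjusted p = 0.0182). Cps1 was also lower in rapa-treated aged than in young oocytes in that fit (-2.72 ± 0.54, edgeR adjusted p = 0.0280). There it was the only one of the 15 substrates called, against 2.97% of all genes. With all 7 libraries none of the 4 passed between aged and young oocytes, with adjusted p between 0.327 and 0.554 in edgeR. Nor did Cps1 pass between rapa-treated aged and young oocytes (edgeR adjusted p = 0.565).

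Between the tissues most members of the lists differed, as most genes did. Of all genes tested, 32.9% were called higher and 55.8% lower in oocytes. Of 18 NAD genes tested, 4 were higher and 11 lower in oocytes, with a median log2 fold change of -1.65 against -1.43 over all genes. Of the 22 substrates 6 were higher and 16 lower (median -1.86), of the 9 regulators 3 were higher and 6 lower (median -1.70), and of the 11 zinc-dependent deacetylases 1 was higher and 9 lower (median -2.51). Total-count scaling gave 4 higher and 13 lower NAD genes, 5 and 16 substrates, 2 and 6 regulators, and 0 and 10 deacetylases. Under that scaling 89.6% of all genes were called, and 27.5% were called higher in oocytes.

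Nampt averaged 13.9 ± 4.0 CPM in oocytes and 65.7 ± 7.0 CPM in hippocampus on the shared scale (log2 fold change -2.30 ± 0.16, edgeR adjusted p = 4.38e-10). The NAD hydrolase Sarm1, known from axon degeneration (-7.81 ± 0.45), and the mitochondrial NAD kinase Nadk2 (-4.38 ± 0.28) were also lower in oocytes, and kynureninase Kynu, an enzyme of tryptophan breakdown toward NAD, was higher (6.15 ± 0.47). Mitochondrial substrates included the respiratory chain subunits Uqcrc1 (-7.12 ± 0.35) and Ndufa9 (-4.27 ± 0.23), both lower in oocytes, as was the mitochondrial acetyl-CoA synthetase Acss1, with 2 counts over the 7 oocyte libraries and a level in hippocampus 412 times that in oocytes (counting interval 114 to 3407). The Sirt1 substrate Trp53 was higher in oocytes (3.45 ± 0.15). Among regulators, E2f1 (3.85 ± 0.21) and Pparg (6.12 ± 0.44) were higher in oocytes, and Ccar2, an inhibitor of Sirt1 (-4.52 ± 0.25), and Prkaa1, a catalytic subunit of the energy sensor AMPK (-2.11 ± 0.16), were lower.

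Zinc-dependent deacetylases do not use NAD and act beside the sirtuins on histones and tubulin. Hdac11 had 0 counts in all 7 oocyte libraries and averaged 154 CPM in hippocampus. With a floor of 3 counts over the oocyte libraries in place of 0, its level was 1438-fold lower there. The lower end of its counting interval was 1170-fold. Hdac5 had 3 counts in oocytes, and its hippocampus level was 1573 times that in oocytes (counting interval 538 to 7626). Hdac7 (-7.36 ± 0.53) and Hdac1 (-2.51 ± 0.17) were lower in oocytes too, both past the edgeR threshold.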

How the data were processed

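RNA was sequenced from 7 oocyte and 10 hippocampus libraries in 6 groups. The deposited values are counts of reads per gene for each library, not normalized, and the authors named STAR, HTSeq and mm10, per the submitters' processing notes. No version, annotation or strand setting is named in these sources. The 5 summary rows that name no gene entered neither library sizes nor tests. Reads outside genes took 6.09% to 9.32% of a column in oocytes and 11.6% to 16.0% in hippocampus, and multiply mapped reads 10.0% to 15.9% and 5.09% to 8.01%.

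Each tissue was fitted alone with its 3 groups, and all 17 libraries together for oocytes against hippocampus. Genes were filtered with filterByExpr (minimum count 10), scaled with TMM (trimmed mean of M values) and tested by quasi-likelihood in edgeR. P-values were adjusted by the method of Benjamini and Hochberg across every gene in the fit, with 0.05 as threshold. CPM are counts per 1000000 of the TMM-scaled library, set within a tissue unless said to be shared. The ± after a log2 fold change is its standard error. Correlations used log2(CPM + 1) and 100000 permutations, and the search for similar genes used log2 CPM with a prior count of 2. Counting intervals are exact binomial ones at the 95% level, and like the floor of 3 counts they cover counting error only. The code was tested on simulated data. Lengths and overlaps came from GENCODE M21 on GRCm38, where 23574 of 24491 symbols (96.3%) matched 1 gene, and all 7 sirtuins matched RefSeq promoters.

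The members and lists were chosen with earlier results of these data known. Named beside the sirtuins are up to 4 genes past the threshold per list and comparison, by smallest p, Nampt, the most similar gene of each sirtuin and genes sharing its exons. Foxo3, Rela, Hif1a, Cps1 and Rps19bp1 passed only under an alternative and were chosen after their values were seen. No pair of replicates agreed within counting noise (chi-square per degree of freedom at least 12.3). Alternatives were no filter, RLE scaling, DESeq2, only the 2 groups compared, a replicate block, the longest transcript as length and leaving out each library. A ribosomal list covariate, total-count scaling, removal of group means, correlations within 6 libraries and DESeq2 without 1 library were added after seeing the data. Versions were R 4.3.3, edgeR 4.0.16, DESeq2 1.42.0, Python 3.11.15 and matplotlib 3.10.9.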

Additional observations from a re-analysis of the deposited data

How the results depend on the processing

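No alternative changed the count of 0 sirtuins called between groups, and leaving out each library in turn gave 0 throughout. For oocytes against hippocampus the count of sirtuins was 6, with total-count scaling it was 5, and without single libraries it was 5 to 6. Of the sirtuin log2 fold changes under other settings with all libraries, 228 kept their direction and their side of the threshold, 15 reversed and 1 gained the call. Sirt2, Sirt3 and Sirt5 had 33, 92 and 91 counts over all 7 oocyte libraries. Counting error alone gave 95% intervals of the ratio of aged to young oocytes of 0.0037 to 1.14, 1.58 to 7.68 and 0.912 to 2.86 for these genes.

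The number of all genes called was less stable. Without a filter it was 11 between rapa-treated aged and aged oocytes (0 in the reported fit), 167 between aged and young (27) and 179 between rapa-treated aged and young (43). DESeq2 called 11, 288 and 243 in those oocyte comparisons, and in hippocampus 13 between rapa-treated aged and aged mothers (0), 52 between aged and young (7) and 36 between rapa-treated aged and young (8). With only the 2 groups compared the counts were 1177 between aged and young oocytes, 14 between rapa-treated aged and young oocytes, and 2, 2 and 5 in hippocampus. With the ribosomal list covariate they were 11 for aged against young mothers and 16 for rapa-treated aged against young mothers. Leaving out single libraries gave ranges of 0 to 6, 0 to 1168 and 0 to 304 in oocytes, 0 to 1, 0 to 15 and 2 to 10 in hippocampus, and 14574 to 15067 between the tissues. The upper oocyte values came without replicate 1 of the rapa-treated aged group. The cause of these differences was not tested.

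The labels state no shared batch, and the reported fits did not pair the samples by replicate number. Deviations of same-numbered libraries from their group means correlated at -0.092 to 0.004 in oocytes and at -0.18 to 0.64 in hippocampus. In hippocampus r was over 0.1 in 6 of 9 same-numbered pairs and in 8 of 24 others. Best correlation was with the own number in 0 of 6 oocyte and 4 of 9 hippocampus libraries. Deviations within the aged and within the young oocyte group mirror each other by construction. The oocyte values therefore cannot settle whether the numbers mark a pairing, and the hippocampus values do not settle it. A replicate block changed the count of all genes to 1 between aged and young oocytes, 0 between rapa-treated aged and young oocytes, and 4 between offspring of rapa-treated aged and young mothers. It reversed Sirt7 between rapa-treated aged and aged oocytes (-0.66), Sirt1 (0.15), Sirt5 (-0.31) and Sirt7 (-0.55) between rapa-treated aged and young oocytes, and Sirt3 between offspring of rapa-treated aged and young mothers (-0.026).

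The ribosomal list covariate reversed Sirt2 (0.17), Sirt3 (0.083) and Sirt7 (0.065) between offspring of rapa-treated aged and aged mothers. It reversed Sirt2 (-0.083) and Sirt5 (-0.028) between aged and young mothers, and Sirt1 (-0.0038), Sirt2 (0.086) and Sirt4 (-0.11) between rapa-treated aged and young mothers. Total-count scaling reversed Sirt1 (-0.14) and Sirt6 (-0.0024) between oocytes and hippocampus. None of these values passed the threshold.

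Leaving out single libraries reversed 38 sirtuin log2 fold changes and left 416 as they were. In oocytes the ranges that crossed 0 were -0.40 to 0.92 for Sirt3, -1.03 to 0.12 for Sirt6 and -0.53 to 0.45 for Sirt7 between rapa-treated aged and aged, -0.061 to 0.42 for Sirt7 between aged and young, and -0.18 to 0.16 for Sirt1, -0.28 to 0.32 for Sirt5 and -0.40 to 0.60 for Sirt7 between rapa-treated aged and young. In hippocampus they were -0.33 to 0.20 for Sirt1, -0.47 to 0.042 for Sirt2 and -0.28 to 0.14 for Sirt7 between rapa-treated aged and aged mothers. Between aged and young mothers they were -0.016 to 0.32 for Sirt1, -0.0034 to 0.35 for Sirt2, -0.017 to 0.088 for Sirt5 and -0.25 to 0.054 for Sirt7. Between rapa-treated aged and young mothers they were -0.16 to 0.37 for Sirt1, -0.34 to 0.19 for Sirt2, -0.40 to 0.24 for Sirt3, -0.13 to 0.41 for Sirt4, -0.038 to 0.093 for Sirt6 and -0.40 to 0.022 for Sirt7. Sirt7 between oocytes and hippocampus ranged from -0.30 to 0.031, and the correlation of Sirt2 with the oligodendrocyte list from 0.938 to 0.967.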
